A study of Mus musculus with 12 samples.

Results

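The 3 Nr4a receptors and 7 early feedback genes were followed across the life of the mouse muscle stem cell. These 10 genes (Nr4a1, Nr4a2, Nr4a3, Dusp1, Ier2, Ier3, Ier5, Zfp36, Zfp36l1 and Egr3) were taken by name from the 19938 genes measured. Probe sets carrying exactly 1 gene symbol were used, and the brightest was kept for a gene with several. All 10 genes were found, each with 1 probe set. The cells were satellite cells, the stem cells of skeletal muscle, sorted for the green fluorescence of a ZsGreen reporter of the Pax7 gene, of which every mouse carried 1 copy (heterozygous Pax7-ZsGreen mice, strain given as C57BL/6). Fetal cells came from fore- and hindlimbs at E17.5 (4 mice), adolescent cells from hindlimbs at postnatal day 21 (6 mice), adult cells from hindlimbs at 2 to 3 months (8 mice) and aged cells from hindlimbs at over 1 year (8 mice). Each of the 4 stages has 3 arrays. Muscle was digested with collagenase and dispase before sorting, gates were set by age and against wild-type SV129 mice, and the fetal stage differs from the others in limb as well as in age. The labels do not say if the 3 arrays of a stage hold separate pools of mice. The p-values therefore rest on differences among these particular samples, and those may be technical in origin.

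Immediate early genes are transcribed within minutes of a signal without new protein synthesis, and many of their products then damp the signal. Nr4a1 (Nur77), Nr4a2 (Nurr1) and Nr4a3 (Nor1) are orphan nuclear receptors, transcription factors whose activity is set mainly by how much of them is made. Cyclic AMP, calcium and growth factors induce them, and in skeletal muscle they are known as adrenergic and exercise-induced regulators of sugar and fat metabolism. Dusp1 removes the phosphates that activate stress MAP kinases, Zfp36 and Zfp36l1 bind AU-rich elements of short-lived transcripts and speed their decay, and Egr3 and the Ier proteins adjust transcription and stress signalling. Genes of this class are also known to respond when tissue is digested and cells are sorted.

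Values are log2 signals, on which a difference of 1 is a 2-fold change. A gene rose or fell where its adjusted p, from limma with Benjamini-Hochberg adjustment over 19938 genes, was under 0.05. Errors of differences are standard errors pooled over the 4 stages, with n = 3 arrays a stage. Array medians lay between 6.13 and 6.29. Satellite cell markers were checked first, and all 13 lay above background on all 12 arrays, with Pax7 between 10.4 and 11.7. Background was taken from 1210 probe sets of olfactory and vomeronasal receptors. Above background means above their 95th percentile on that array. All 10 endothelial markers were above it on all 12 arrays too, while 0 of 6 neutrophil markers were on all 3 arrays of any stage. The check therefore does not measure how pure the sorted cells were. The mean receptor signal was 4.47 on adult array 2, 4.50 on adult array 3 and 4.31 on aged array 1, against 3.79 to 3.91 on the other 9 arrays. All 10 genes lay above background on 10 arrays, and 9 of 10 did so on adult arrays 2 and 3, where Ier5 did not. Adult array 1 stood apart from the other two in Mki67, a marker of cycling cells (9.28 against 6.58 and 6.44). Within each stage, arrays 2 and 3 correlated more closely across genes (r from 0.996 to 0.999) than either did with array 1 (0.972 to 0.993). Genes are not independent replicates in these correlations.

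In limma's F-test for any difference among stages, all 10 genes passed, as did 41.6% of all genes. Without fetal array 1 or fetal array 2, 9 of the 10 passed. Most of the genes were lowest in fetal cells and highest in aged cells, with Nr4a2 highest in fetal cells and Ier5 lowest in adult cells. In these bulk samples fewer cells of a type and less RNA per cell cannot be told apart.

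**Figure D1:**
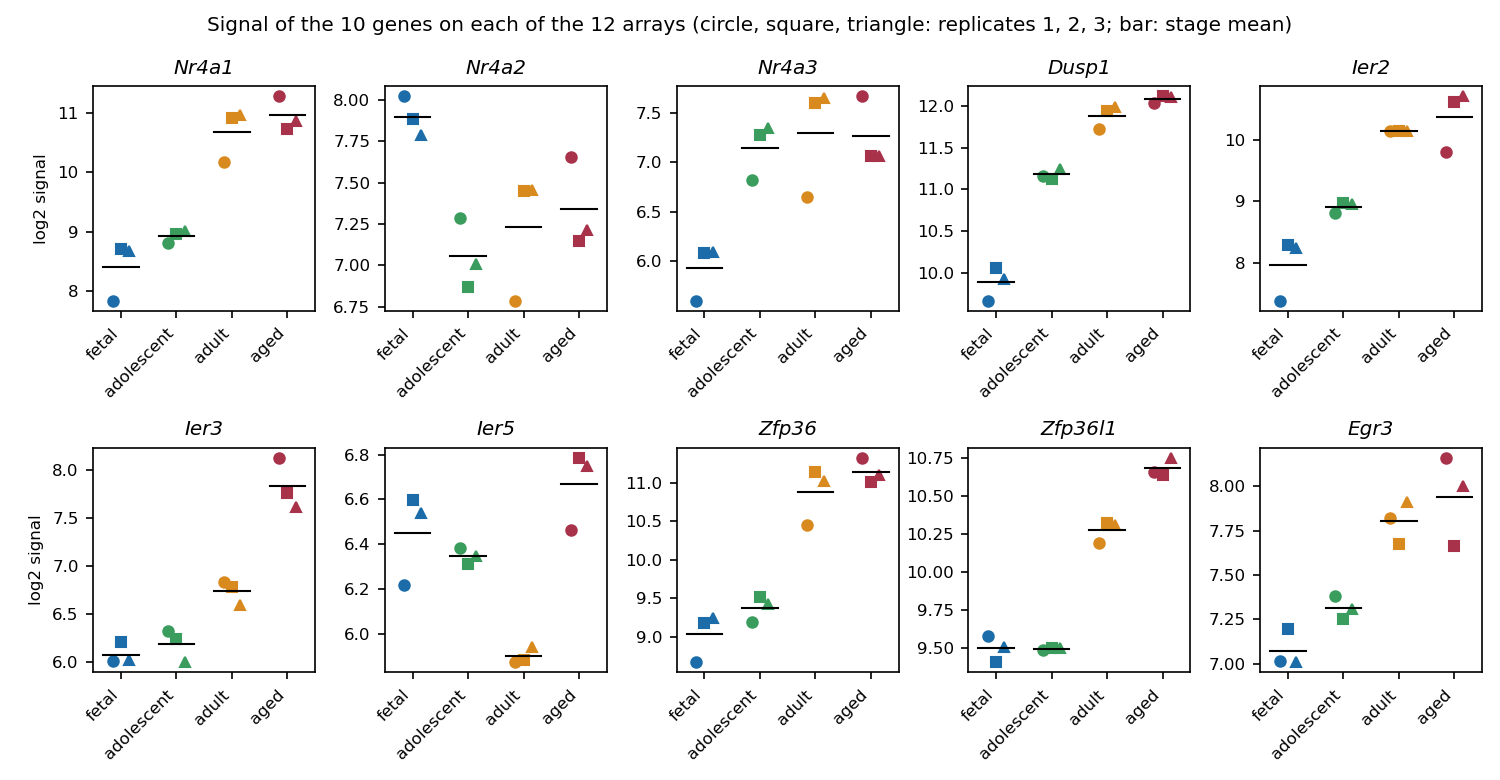
Log2 signal of the 10 genes (vertical axes, scaled separately for each gene) on the 12 arrays, by stage on the horizontal axes. Circles, squares and triangles are replicates 1, 2 and 3, and bars are stage means. Dusp1 climbs from 9.66 at its lowest to 12.12 at its highest array, Nr4a2 is highest in fetal cells, and Ier5 is lowest in adult cells.

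From fetal to adolescent cells, Nr4a3, Dusp1 and Ier2 rose, Nr4a2 fell, and the other 6 genes did not pass. In that comparison 18.8% of all genes passed, with 10.1% higher and 8.68% lower in adolescent cells. The median difference was 0.30 over the 10 genes and 0.02 over all genes. Arrays of the 2 stages did not overlap for 6 of the 10 genes, 5 of them higher, and for 41.6% of all genes (22.7% higher). The rise of Ier2 was lost without any of 3 arrays: its adjusted p was 0.0662 without fetal array 1, 0.0613 without adolescent array 2 and 0.0585 without adolescent array 3 (1.12e-04 to 0.103 over all alternatives). With arrays 2 and 3 averaged the calls of Nr4a2 (0.109, within 8.51e-07 to 0.109), Nr4a3 (0.0784, within 3.54e-07 to 0.0784) and Ier2 (0.103) were lost. Markers of other cells moved in this comparison as well, with 9 of 10 endothelial, 6 of 7 smooth muscle and pericyte and 4 of 8 mature myofibre markers higher and 5 of 6 mast cell markers lower in adolescent cells. The arrays' mean of the endothelial markers lay between 6.94 and 7.83 in fetal and between 8.54 and 9.10 in adolescent cells, and that of the myofibre markers between 6.97 and 8.01 and between 8.88 and 9.35. Of the satellite cell markers 10 of 13 were higher. The part of any of these lists in the differences of the 10 genes was not tested.

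From adolescent to adult cells, 7 of the 10 genes rose (Nr4a1, Dusp1, Ier2, Ier3, Zfp36, Zfp36l1 and Egr3) and Ier5 fell. Over all genes 19.8% passed, and they split into 4.56% that rose and 15.2% that fell. The median difference was 0.63 over the 10 genes and 0.03 over all genes. Arrays did not overlap for 8 of the 10 genes, 7 of them higher, against 36.0% of all genes (13.6% higher). All 7 measured markers of cycling cells fell in the same comparison, as did 6 of 10 endothelial, 4 of 8 mature myofibre and 3 of 7 smooth muscle and pericyte markers. Of the satellite cell markers 4 of 13 rose and 1 fell, with a median of 0.26. The arrays' mean of the cycling markers lay between 9.91 and 10.1 in adolescent cells and between 6.61 and 8.55 in adult cells, and that of the myofibre markers between 8.88 and 9.35 and between 7.93 and 8.21. The part of these lists in the differences was not tested. The count of 8 became 5 without adolescent array 3 and 9 without adult array 1, and it was 5 with the receptor signal as a covariate and 3 when arrays 2 and 3 were replaced by their mean, both chosen after the data were seen.

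From adult to aged cells, Ier3, Ier5 and Zfp36l1 rose, none fell and 7 did not pass. Of all genes 3.50% passed, 3.28% higher and 0.216% lower in aged cells. The median difference was 0.25 over the 10 genes and -0.01 over all genes. Arrays did not overlap for 4 of the 10 genes, all higher (Dusp1 beside those 3), against 16.0% of all genes (10.2% higher). Of 10 endothelial markers 8 rose in this comparison, among them Flt1 (1.34 ± 0.26) and Ptprb (1.48 ± 0.32). The mean of the 10 lay between 7.87 and 7.94 on the adult and between 8.75 and 9.34 on the aged arrays, and all 10 were above background on every array. Of 7 smooth muscle and pericyte markers 3 rose, and 0 of 8 macrophage, 0 of 7 fibroblast and 0 of 6 mast cell markers passed in limma (1, 2 and 2 had an unadjusted p under 0.05). The part of the endothelial signal in the rises of Ier3, Ier5 and Zfp36l1 was not tested. With arrays 2 and 3 averaged, which leaves 2 samples a stage, 0 of the 10 genes and 2 of all genes passed in limma, and 3 of the 10 had an unadjusted p under 0.05.

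Over longer spans the pattern was broader. Adult against fetal cells separated all 10 genes, with 8 higher and Nr4a2 and Ier5 lower, where 42.5% of all genes passed (19.1% higher and 23.4% lower). None of the 10 overlapped between these stages, against 47.9% of all genes without overlap (23.0% higher). Their median difference was 1.07, against 0.09 over all genes. With arrays 2 and 3 averaged 8 genes passed in limma and 0 were lower. The calls of Nr4a2 (adjusted p = 0.0616) and Ier5 (adjusted p = 0.0913) were lost there. Ier5 was also not above background on adult arrays 2 and 3. Aged against fetal cells had 8 genes higher, Nr4a2 lower and Ier5 not passing, where 35.8% of all genes passed (16.4% higher and 19.4% lower). Arrays did not overlap for 9 of the 10, 8 of them higher, against 48.9% of all genes (23.0% higher). The median there was 1.54, against 0.02 over all genes. Aged against adolescent cells had 7 genes higher and none lower, where 19.6% of all genes passed, 8.08% higher. Arrays did not overlap for 8 of the 10, all higher, against 38.4% of all genes (15.8% higher). The median was 1.05, against -0.01 over all genes. These comparisons share arrays with one another and with the 3 steps. Against fetal cells, aged cells were also higher in 10 of 10 endothelial, 5 of 7 smooth muscle and pericyte and 4 of 8 mature myofibre markers, and lower in 7 of 7 cycling and 5 of 6 mast cell markers. Adult cells were higher in 3 of 10 endothelial, 5 of 7 smooth muscle and pericyte and 4 of 8 mature myofibre markers, and lower in 7 of 7 cycling and 5 of 6 mast cell markers. Of the satellite cell markers 11 of 13 were higher and 1 was lower against fetal cells, in adult as in aged cells. Aged cells were lower than adolescent cells in 7 of 7 cycling and 5 of 8 mature myofibre markers. Of the satellite cell markers 3 of 13 were higher and 2 were lower in that comparison. The part of these lists in the long differences was not tested.

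**Figure D2:**
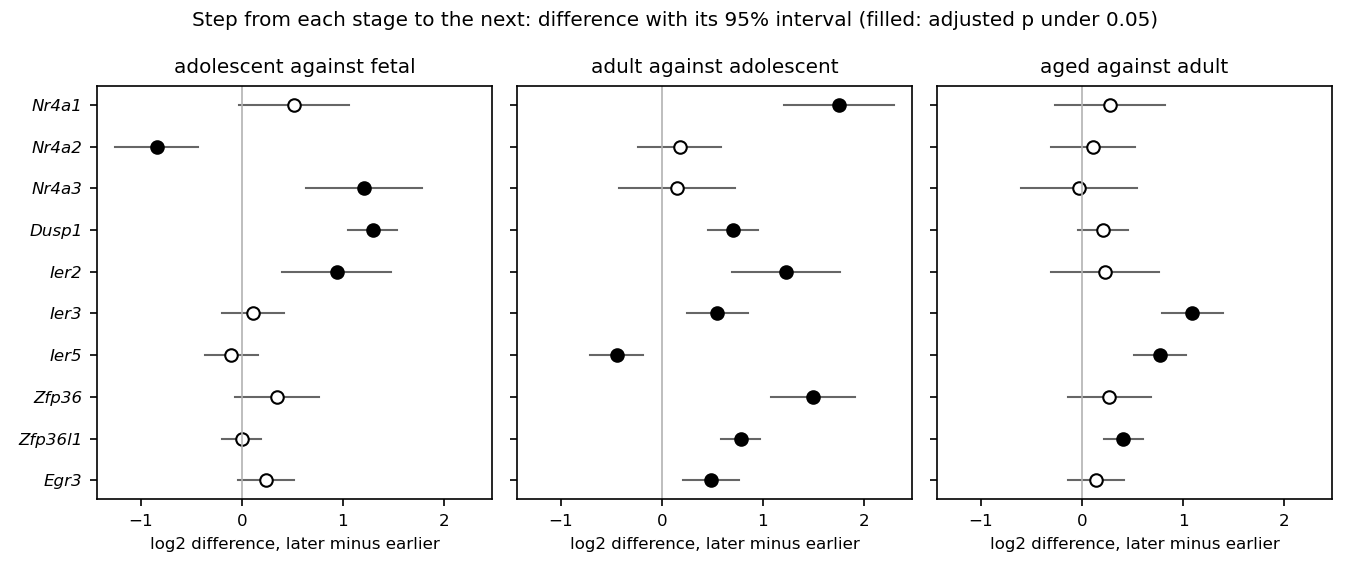
Difference in log2 signal (horizontal axes, later minus earlier stage) of each gene between successive stages, with its 95% interval from limma. Filled points have an adjusted p under 0.05. Nr4a3, Dusp1 and Ier2 are filled to the right of 0 in the step from fetal to adolescent cells, 7 genes are in the step to adult cells, and Ier3, Ier5 and Zfp36l1 are in the step to aged cells.

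The promoters of 8 of the 10 genes were found in the RefSeq promoter table (build GRCm38.p6), and those of Ier2 and Egr3 were not. The 250 bases before the start of transcription were searched on both strands for TGACG, the core of the cyclic AMP response element to which Creb factors bind. This core stood 4 times in each of Nr4a1, Nr4a2 and Nr4a3 and 3 times in Dusp1. Of 32851 promoters of that length, 17.8% held at least 1 copy, 0.688% at least 3 and 0.137% at least 4. The sequences of the 3 receptors and Dusp1 are shown because each holds at least 3 cores. Any link between the cores and the profiles over the stages was not tested. Capitals mark TGACG or its reverse complement, and in Dusp1 a full TGACGTCA, which holds the core on both strands and stood in 1.55% of promoters.
Nr4a1, chr15:101266596-101266845, plus strand: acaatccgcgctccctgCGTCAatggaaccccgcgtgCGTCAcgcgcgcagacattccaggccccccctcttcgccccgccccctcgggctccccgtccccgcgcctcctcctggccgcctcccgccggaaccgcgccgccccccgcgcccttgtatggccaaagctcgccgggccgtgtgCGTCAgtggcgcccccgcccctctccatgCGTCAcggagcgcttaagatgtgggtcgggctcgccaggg
Nr4a2, chr2:57124004-57124253, minus strand: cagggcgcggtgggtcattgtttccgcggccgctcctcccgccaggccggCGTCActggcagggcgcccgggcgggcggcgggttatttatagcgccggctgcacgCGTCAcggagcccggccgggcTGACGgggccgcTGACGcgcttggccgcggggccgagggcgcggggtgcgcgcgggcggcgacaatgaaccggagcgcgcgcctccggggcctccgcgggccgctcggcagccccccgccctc
Nr4a3, chr4:48045055-48045304, plus strand: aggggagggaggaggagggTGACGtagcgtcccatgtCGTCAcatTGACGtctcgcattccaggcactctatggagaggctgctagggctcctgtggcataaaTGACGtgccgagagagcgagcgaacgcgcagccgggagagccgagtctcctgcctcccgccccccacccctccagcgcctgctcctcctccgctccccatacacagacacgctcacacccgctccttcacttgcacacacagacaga
Dusp1, chr17:26508473-26508722, minus strand: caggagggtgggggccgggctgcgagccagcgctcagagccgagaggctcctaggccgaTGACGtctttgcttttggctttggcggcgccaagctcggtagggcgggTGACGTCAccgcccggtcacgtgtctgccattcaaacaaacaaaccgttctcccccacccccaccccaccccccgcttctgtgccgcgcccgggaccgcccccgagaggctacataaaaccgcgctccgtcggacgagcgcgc
A match is a description of the letters and not a measured binding site. The monomer motif of the Nr4a receptors, AAAGGTCA, was in 1.34% of promoters and in none of these 8 windows.

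Nr4a1 went up mainly between adolescence and adulthood. Its signal was 7.84, 8.71 and 8.67 on the fetal arrays, 8.80, 8.96 and 9.01 on the adolescent, 10.17, 10.91 and 10.96 on the adult and 11.28, 10.73 and 10.87 on the aged arrays. Every adult and aged array lay above every fetal and adolescent one, while adult and aged arrays overlapped. The step from adolescent to adult cells was 1.76 ± 0.25, a 3.38-fold rise (adjusted p = 6.56e-04). The steps before it (0.52 ± 0.25, adjusted p = 0.207) and after it (0.28 ± 0.25, adjusted p = 0.484) did not pass. Aged cells exceeded fetal cells 5.88-fold (2.56 ± 0.25, adjusted p = 3.79e-06). Without the 3 arrays of high receptor signal, which leaves adult array 1 as the only adult sample, the adult step was 1.25. The adjusted p of the adult step ran from 7.10e-09 to 0.0478 over all alternatives. That step passed whichever single array was left out (1.62 to 2.01).

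Nr4a2 was highest in the fetus. It gave 8.02, 7.88 and 7.79 on the fetal arrays, 7.29, 6.87 and 7.01 on the adolescent, 6.79, 7.45 and 7.45 on the adult and 7.65, 7.15 and 7.21 on the aged arrays. Every fetal array was above every later one, and the 3 later stages overlapped with one another. Nr4a2 fell from fetal to adolescent cells by 0.84 on the log2 scale (SE 0.19, a 1.79-fold lower signal, adjusted p = 0.00680). It stayed lower in adult cells (-0.67 ± 0.19, adjusted p = 0.0139) and in aged cells (-0.56 ± 0.19, adjusted p = 0.0355). The call in aged cells is weak, since leaving out any of fetal arrays 1, 2 and 3 or aged arrays 2 and 3 gave an adjusted p between 0.0569 and 0.131. It was also lost with the replicate number as a block (0.0603), after repeated quantile normalization (0.0568) and with arrays 2 and 3 averaged (0.223), over a range of 3.87e-05 to 0.223. The call in adult cells was lost without fetal array 1 (0.0520), after repeated quantile normalization (0.0603) and with arrays 2 and 3 averaged (0.0616), with 7.52e-05 the lowest. Without adult array 1 Nr4a2 was higher in adult than in adolescent cells (0.40, adjusted p = 0.0482, within 2.60e-04 to 0.991).

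Nr4a3 moved the other way at the same step. Its signal was 5.61, 6.09 and 6.10 on the fetal arrays, 6.82, 7.27 and 7.35 on the adolescent, 6.65, 7.59 and 7.64 on the adult and 7.66, 7.07 and 7.06 on the aged arrays. The fetal arrays were the lowest 3, and the later stages overlapped. The fetal signals were above background but near its limit, which was 5.37, 5.46 and 5.34 on fetal arrays 1, 2 and 3. Folds against fetal cells are therefore not exact for Nr4a3. Nr4a3 rose 2.32-fold from fetal to adolescent cells (1.21 ± 0.26, adjusted p = 0.00543), and the next steps were 0.15 ± 0.26 and -0.03 ± 0.26, neither of which passed. The 95% intervals of those steps were -0.42 to 0.72 and -0.60 to 0.54.

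The 3 receptors had unequal profiles, and the difference between them on the same array was compared across the stages. Probe sets differ in brightness for reasons of design, so only the change of such a difference over the stages is read, not its level. Nr4a1 minus Nr4a2 went from 0.51 ± 0.60 (SD, n = 3) in fetal cells to 1.87 ± 0.31 in adolescent, 3.45 ± 0.06 in adult and 3.62 ± 0.03 in aged cells. Nr4a1 minus Nr4a3 was 2.47 ± 0.21, 1.78 ± 0.18, 3.39 ± 0.12 and 3.70 ± 0.10 in the same order. An exact permutation test of the 12 arrays over the 4 stages, with 369600 arrangements, gave p = 6.49e-05 for both, the smallest it can give (1.08e-04 adjusted over 5 pairs, which were chosen after the values had been seen). Nr4a2 minus Nr4a3 dropped from 1.97 ± 0.39 in fetal cells to -0.09 ± 0.49, -0.07 ± 0.18 and 0.07 ± 0.08 in the later stages. Its exact permutation p was 0.0145, the same after adjustment. All 5 pairs were chosen after the values had been seen, and the adjustment does not correct for that. These p-values therefore describe the values and add no support. The test also takes every array as independent, though arrays 2 and 3 were alike in every stage. Fetal Nr4a3 lay near background, so fetal differences from it are not exact.

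**Figure D3:**
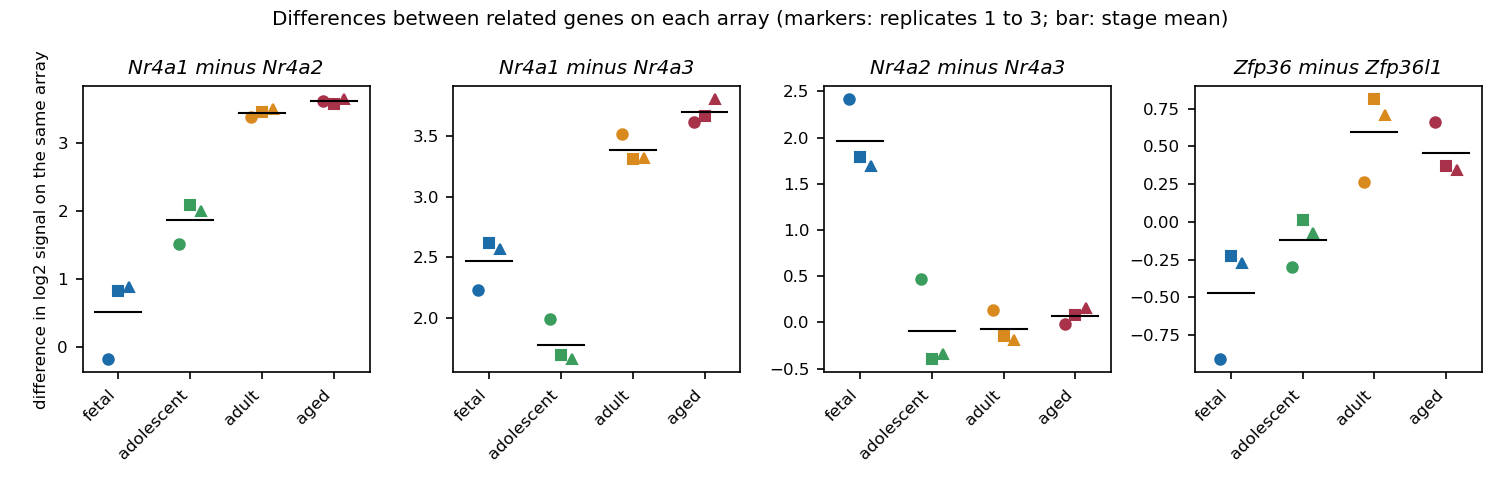
Difference in log2 signal between related genes on the same array (vertical axes), by stage. Circles, squares and triangles are replicates 1, 2 and 3, and bars are stage means. Nr4a1 minus Nr4a2 widens from a mean of 0.51 in fetal to 3.62 in aged cells, and Nr4a2 minus Nr4a3 is highest in fetal cells at 1.97.

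Partners and upstream factors of the receptors moved in both directions. Of 18 measured genes (retinoid X receptors, Creb factors and their coactivators, serum response and Mef2 factors, protein kinase A subunits), 7 were higher and 3 lower in aged than in fetal cells, with a median of 0.10. Over all genes the shares were 16.4% and 19.4%, and the median was 0.02. Rxrg, a retinoid X receptor, fell (-1.68 ± 0.10 as measured, with 2 of 3 aged arrays above background), and the Creb coactivators Crtc1 (0.84 ± 0.09) and Crtc3 (0.98 ± 0.12) and the muscle factor Mef2d (0.68 ± 0.11) rose. At the step from adolescent to adult cells 3 of the 18 rose and 2 fell, with a median of -0.005. Over all genes 4.56% rose and 15.2% fell there. The 3 risers were Crtc1 (0.52 ± 0.09), Crtc3 (0.60 ± 0.12) and Mef2d (0.45 ± 0.11). Any link of these genes with the rise of Nr4a1 was not tested. In aged against fetal cells the lower genes numbered 6 without adult array 1. They numbered 2 without fetal array 2 or 3 or aged array 2 or 3.

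Egr3, a zinc finger factor of the Egr family known for its part in the formation of muscle spindles, rose into adulthood. It gave 7.02, 7.20 and 7.01 on the fetal arrays, 7.38, 7.25 and 7.31 on the adolescent, 7.82, 7.68 and 7.91 on the adult and 8.16, 7.66 and 8.00 on the aged arrays. Fetal, adolescent and adult arrays did not overlap with one another, and adult and aged arrays did. The step into adulthood was 0.49 ± 0.13 (adjusted p = 0.0182), the step before it was 0.24 ± 0.13 and did not pass, and aged cells were 1.83-fold above fetal cells (0.87 ± 0.13, adjusted p = 1.21e-04). The adult step had an adjusted p of 0.0678, 0.0608 and 0.0826 without adolescent array 2, adolescent array 3 and adult array 3 (1.70e-04 to 0.203 over all alternatives). Among its 6 relatives and co-repressors (Egr1, Egr2, Egr4, Nab1, Nab2 and Wt1) 2 were higher in aged than in fetal cells and none lower, with Egr1 up by 0.63 ± 0.09. Without fetal array 1 only 1 of them passed.

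Dusp1 rose at both early steps with little spread between arrays. The phosphatase stood at 9.66, 10.06 and 9.93 on the fetal arrays, 11.16, 11.13 and 11.24 on the adolescent, 11.72, 11.94 and 11.98 on the adult and 12.03, 12.12 and 12.11 on the aged arrays. No array of a stage overlapped with an array of another. Dusp1 rose 2.45-fold from fetal to adolescent (1.30 ± 0.11, adjusted p = 3.80e-06) and 1.63-fold from adolescent to adult cells (0.70 ± 0.11, adjusted p = 0.00133). The last step, 0.21 ± 0.11, did not pass (adjusted p = 0.297). Aged cells were 4.61-fold above fetal cells (2.20 ± 0.11, adjusted p = 1.51e-08). With replicates 2 and 3 averaged the adult step had an adjusted p of 0.0931 (from 4.43e-07 to 0.0931 over all alternatives).

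Of 10 other dual specificity phosphatases measured, 3 were higher and none lower (1 lower at an unadjusted p under 0.05 in limma) in aged than in fetal cells, and the list's median was -0.10. Dusp5, a nuclear phosphatase of ERK, rose by 0.41 ± 0.11 in that comparison, while Dusp4 (-0.29 ± 0.24) and Dusp10 (-0.42 ± 0.20) did not pass. Among 13 MAP kinases and their stress-pathway partners 1 was higher and 4 were lower in aged cells, where 19.4% of all genes were lower. Mapk12 rose (0.68 ± 0.11), and Map2k3 (-0.58 ± 0.15), Mapkapk2 (-0.31 ± 0.10) and Mapk11 (-0.57 ± 0.17) fell. The kinase Mapkapk2 is known to phosphorylate Zfp36 and so to keep it from its targets. Of these kinases 1 was lower without fetal array 3 or aged array 3, 2 without fetal array 1 or aged array 1, and 6 without adult array 1 (the higher ones were 2 without fetal array 1 or adult array 1).

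Zfp36 (tristetraprolin), which is known to act on the Myod1 transcript in satellite cells, had nearly the profile of Nr4a1. Its signal was 8.67, 9.18 and 9.23 on the fetal arrays, 9.19, 9.51 and 9.43 on the adolescent, 10.45, 11.14 and 11.02 on the adult and 11.32, 11.01 and 11.09 on the aged arrays. Adult and aged arrays all lay above the earlier ones and overlapped with each other, as did fetal and adolescent arrays. The adult step was 1.49 ± 0.19, or 2.82-fold (adjusted p = 3.50e-04), and aged cells were 4.34-fold above fetal cells (2.12 ± 0.19, adjusted p = 1.88e-06). Steps from fetal to adolescent (0.35 ± 0.19) and from adult to aged cells (0.27 ± 0.19) did not pass. The Zfp36 promoter is shown because it was the only one of the 8 with a CArG box, the element bound by serum response factor, here in capitals. Such a box stood in 1.47% of promoters.
Zfp36, chr7:28379229-28379478, minus strand: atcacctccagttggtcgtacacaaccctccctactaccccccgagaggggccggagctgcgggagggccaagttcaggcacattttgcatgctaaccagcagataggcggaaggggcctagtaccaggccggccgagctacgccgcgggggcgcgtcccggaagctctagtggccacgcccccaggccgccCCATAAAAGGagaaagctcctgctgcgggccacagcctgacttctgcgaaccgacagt

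Zfp36l1, a relative with the same kind of RNA-binding zinc fingers, rose at both later steps. It gave 9.58, 9.41 and 9.51 on the fetal arrays, 9.49, 9.50 and 9.50 on the adolescent, 10.19, 10.32 and 10.31 on the adult and 10.66, 10.64 and 10.75 on the aged arrays. Fetal and adolescent arrays overlapped, all adult arrays were above them, and all aged arrays were above the adult. The difference between fetal and adolescent cells was -0.00 ± 0.09, with a 95% interval from -0.19 to 0.19. Zfp36l1 rose 1.72-fold into adulthood (0.78 ± 0.09, adjusted p = 1.98e-04) and 1.33-fold from adult to aged cells (0.41 ± 0.09, adjusted p = 0.0258). The later rise was lost without adolescent array 3, adult array 2, adult array 3, aged array 2 or aged array 3 (adjusted p between 0.0509 and 0.137) and with the replicate number as a block (0.0539). Over all alternatives its adjusted p ran from 9.47e-05 to 0.657.

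The rises of Zfp36 and Zfp36l1 were unequal. Zfp36 minus Zfp36l1 on the same array was -0.47 ± 0.38 (SD, n = 3) in fetal, -0.12 ± 0.16 in adolescent, 0.60 ± 0.29 in adult and 0.46 ± 0.18 in aged cells. Its exact permutation p over the stages was 0.00299 (0.00373 adjusted over 5 pairs). This pair too was chosen after the values had been seen, so the p-value is a description. The third member of the family, Zfp36l2, rose by 1.05 ± 0.09 from fetal to adolescent and by 0.63 ± 0.09 from adolescent to adult cells, and was 1.96 ± 0.09 higher in aged than in fetal cells. It was the riser among 20 measured genes of AU-rich element binding and transcript decay, of which 11 fell between fetal and aged cells, with a list median of -0.38. Exosc9, a subunit of the RNA exosome (-1.23 ± 0.16), Hnrnpd, an AU-rich element binding protein (-0.77 ± 0.09), and the decapping factor Dcp1a (-0.65 ± 0.10) were among those that fell. All 7 cycling markers fell in the same comparison, and their part in it was not tested.

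Of 17 measured transcripts known as targets of the Zfp36 proteins, 6 were higher and 1 was lower (2 without aged array 1) in aged than in fetal cells, with a median of 0.22. Myc (1.46 ± 0.13) and Fos (1.67 ± 0.19), which are immediate early genes as well, rose, as did Ier3. Myod1, the myogenic factor, was 0.48 ± 0.11 higher in aged than in fetal cells. It rose from fetal to adolescent cells (0.79 ± 0.11) and did not pass at the adult step (-0.10 ± 0.11), where Zfp36 rose.

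Among the Ier genes, Ier2 rose at both early steps. It encodes a small nuclear protein induced by growth factors. The signal was 7.39, 8.29 and 8.24 on the fetal arrays, 8.81, 8.98 and 8.95 on the adolescent, 10.14, 10.14 and 10.13 on the adult and 9.80, 10.62 and 10.70 on the aged arrays. Fetal, adolescent and adult arrays were fully separated, and the aged arrays lay on both sides of the adult. Ier2 rose 1.92-fold into adolescence (0.94 ± 0.25, adjusted p = 0.0172) and 2.34-fold into adulthood (1.23 ± 0.25, adjusted p = 0.00482), and it was 5.28-fold higher in aged than in fetal cells (2.40 ± 0.25, adjusted p = 5.90e-06). The last step, 0.23 ± 0.25, did not pass. With arrays 2 and 3 averaged the adult step was 1.26 (adjusted p = 0.101, within 1.74e-06 to 0.101 over all alternatives).

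Ier3 rose at both later steps. This stress-induced gene, linked to cell survival and to ERK signalling, gave 6.01, 6.21 and 6.02 on the fetal arrays, 6.33, 6.25 and 6.00 on the adolescent, 6.84, 6.79 and 6.60 on the adult and 8.13, 7.76 and 7.62 on the aged arrays. Fetal and adolescent arrays overlapped, adult arrays lay above both and aged arrays above all others. Its rise from adult to aged cells, 2.14-fold (1.09 ± 0.14, adjusted p = 0.00134), was the largest of the 10 genes at that step. It passed without any single array (0.948 to 1.205). Without the 3 arrays of high receptor signal, which leaves adult array 1 as the only adult sample, the rise was 0.85. Its call was lost with replicates 2 and 3 averaged (adjusted p = 0.117, the highest over all alternatives, with 7.39e-06 the lowest). The step into adulthood was 0.55 ± 0.14 (adjusted p = 0.0166), with 0.0796 without adolescent array 3 and 0.0652 without adult array 2 (1.07e-04 to 0.208 over all alternatives).

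Ier5, which is induced by radiation and heat and acts with heat shock factor, dipped in adult cells. It gave 6.22, 6.60 and 6.54 on the fetal arrays, 6.38, 6.31 and 6.35 on the adolescent, 5.87, 5.88 and 5.94 on the adult and 6.46, 6.79 and 6.75 on the aged arrays. The 3 adult arrays were below all others, and adult arrays 2 and 3 were below background, so the depth of the dip is limited by background there. Ier5 fell into adulthood by 0.45 on the log2 scale (SE 0.12, adjusted p = 0.0201) and rose from adult to aged cells (0.77 ± 0.12, adjusted p = 0.00385, a measured fold of 1.70). Because only 1 of 3 adult arrays was above background, neither size is exact. With arrays 2 and 3 averaged both calls were lost (adjusted p = 0.258 and 0.326, the highest over the alternatives, with 8.57e-05 and 2.14e-06 the lowest). The fall was lost without any 1 of adolescent arrays 1, 2 and 3 or adult arrays 2 and 3 (adjusted p between 0.0530 and 0.0718). It was also lost with the receptor signal as a covariate (0.0737). The rise passed without any single array (0.71 to 0.87) and with that covariate (0.72). The difference of aged from fetal cells (0.22 ± 0.12, adjusted p = 0.199) did not pass. That from adolescent cells (0.32 ± 0.12, adjusted p = 0.0832) passed without fetal array 1 (0.0477) or aged array 1 (0.0231), within 6.91e-05 to 0.564 over all alternatives. Ier2 minus Ier5 on the same array went from 1.52 ± 0.30 (SD, n = 3) in fetal to 2.56 ± 0.13 in adolescent, 4.24 ± 0.04 in adult and 3.71 ± 0.33 in aged cells, and no test is given for it, since Ier5 was not above background on adult arrays 2 and 3.

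Of 46 other immediate early genes measured, 35 were higher and none lower in aged than in fetal cells in limma (38 and 1 at an unadjusted p under 0.05), with a median of 1.18. Over all genes 16.4% were higher and 19.4% lower in that comparison, the background for each list count between aged and fetal cells. Sgk1, a kinase (2.79 ± 0.11), Btg2, an antiproliferative factor (2.23 ± 0.14), the repressor Hes1 (2.00 ± 0.10) and Klf4 (1.88 ± 0.11) had the smallest p in the F-test. At the step into adulthood 17 of the 46 rose and 1 fell, and from fetal to adolescent cells 18 rose and 2 fell (12 and 5 without fetal array 1, and none fell without fetal array 2). From adult to aged cells 11 rose and none fell (22 and 0 at an unadjusted p under 0.05), but 3 to 7 did so without aged array 3, adult array 2, aged array 2, adult array 3, fetal array 3, or adolescent array 2 or 3, and 20 without adult array 1. Sgk1 rose mainly into adolescence (2.35 ± 0.11), as Nr4a3 did, and Hes1 rose at each step. Heat shock genes went in both directions, with 4 of 10 higher and 4 lower in aged than in fetal cells. Hspa1a, an inducible chaperone, was 4.57 ± 0.28 higher, Hspb1 1.95 ± 0.25 higher, and the mitochondrial chaperone Hspd1 was 1.10 lower on the log2 scale (-1.10 ± 0.12). Without fetal array 2 or 3 or aged array 3 only 2 were lower. What the handling of the cells contributes to the rise of these genes was not tested.

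**Figure D4:**
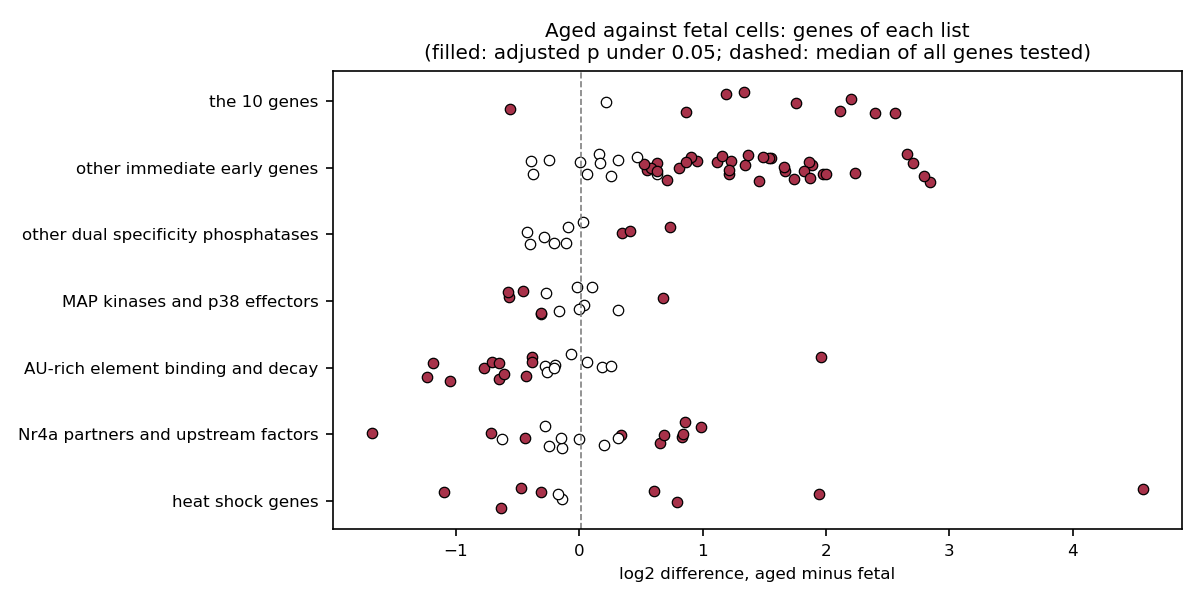
Difference in log2 signal between aged and fetal cells (horizontal axis) for each measured gene of 7 lists, each point 1 gene. Filled points have an adjusted p under 0.05, and the dashed line is the median of all genes tested, 0.02. Of the 10 genes 8 are filled to the right and Nr4a2 to the left, 35 of 46 other immediate early genes are filled to the right, and 11 of 20 genes of AU-rich element binding and decay are filled to the left.

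Genes with the most similar profile were sought among 2625 genes with a stage mean of at least 6 in the highest stage and a range of at least 1 between stage means. Likeness was Pearson's r over the 12 arrays, which fall into 4 stages and share the stage means, so it is given as a description. Nr4a1 was most like Zfp36 (r = 0.996), Fosb (0.991), an AP-1 factor, and Irs2 (0.986), an insulin receptor adaptor. Zfp36 was in turn most like Nr4a1, Fosb (0.992) and Usp54 (0.986). Dusp1 was most like Plcd3 (0.996), Mlxipl (0.995) and Rap1gap2 (0.995), and Ier2 like Jade2, Notch3 and Hoxc5 (0.979 each). Zfp36l1 was most like Gabre (0.993), Ksr2 (0.989) and Sgip1 (0.989), and Ier3 like Smad7 (0.988), an inhibitor of TGF-beta signalling, Elovl4 (0.982) and Sbsn (0.966). Nr4a3 was nearest to Usp2 (0.95), Osgin1 (0.946) and Csdc2 (0.944), and Egr3 to Ccl19 (0.960), Ccn2 (0.955) and Cebpd (0.953). Weaker best matches were found for Nr4a2 (Apela, 0.906, Ccl3, 0.878, and Nell2, 0.873) and for Ier5 (Jam2, 0.895, Gucy1a2, 0.882, and Atxn1, 0.877). Jam2 is known from endothelial junctions.

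The genes also differed between arrays of a stage. Adult array 1 lay below the mean of adult arrays 2 and 3 with differences of -0.76 for Nr4a1, -0.67 for Nr4a2, -0.97 for Nr4a3 and -0.63 for Zfp36. Aged array 1 lay above the mean of aged arrays 2 and 3 by 0.48 for Nr4a1, 0.47 for Nr4a2, 0.60 for Nr4a3 and 0.44 for Ier3, and below it for Ier2 (-0.86). Adult arrays 2 and 3 and aged array 1 are the 3 arrays with a high receptor signal, and the 3 Nr4a receptors were higher on each of them than on the arrays of the same stage without that signal. Fetal array 1 was low in Nr4a1 (-0.85), Ier2 (-0.88) and Zfp36 (-0.54) without a high receptor signal. With the olfactory receptor signal as a covariate the adult steps of Nr4a1 and Zfp36 still passed (1.33 and 1.19), and those of Nr4a2 and Nr4a3 stood at -0.19 and -0.38 and did not pass. Cycling markers set the same arrays apart, with a mean of 8.55 on adult array 1 against 6.61 and 6.62 on adult arrays 2 and 3. In aged cells their mean was 7.33 on array 1 against 6.49 and 6.30 on arrays 2 and 3. The part of the receptor signal or of the cycling markers in the differences within stages was not tested.

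**Figure D5:**
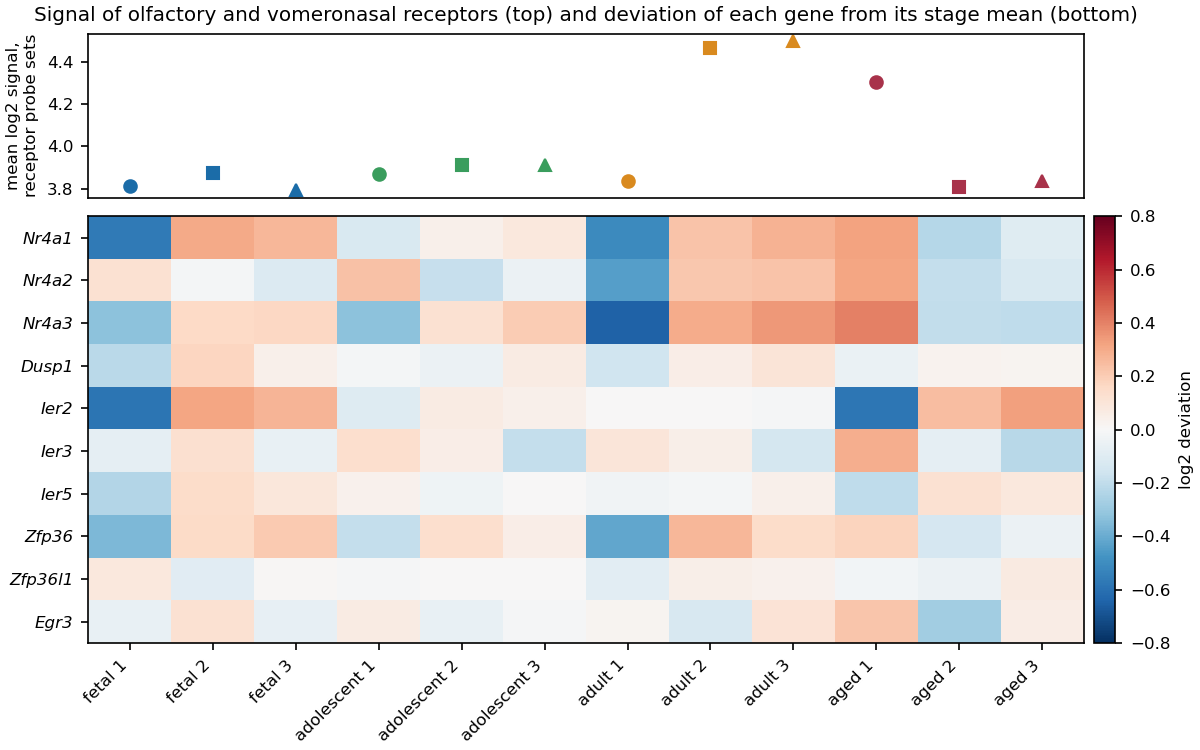
Top, mean log2 signal of 1210 olfactory and vomeronasal receptor probe sets on each of the 12 arrays (vertical axis). Bottom, deviation of each gene from its stage mean on the same arrays, coloured from -0.8 to 0.8 on the log2 scale. The receptor signal is 4.47, 4.50 and 4.31 on adult arrays 2 and 3 and aged array 1, where Nr4a1, Nr4a2 and Nr4a3 also lie above their stage means.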

How the data were processed

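The deposited values are log2 signals per probe set, which the authors normalized by RMA, using Expression Console 1.2.1.20 from Affymetrix, per the submitters' processing notes. They were used as deposited, and the genome build is not given in the sources used here. Of 35556 probe sets, 21789 carried 1 symbol, 1621 several and 12146 were not named here. A linear model of stage over all 12 arrays (8 residual degrees of freedom) was fitted to 19938 genes in R 4.3.3 (limma 3.58.1). The number of arrays limits the precision. The method was first tested on simulated data.

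The 10 genes and the other lists were chosen with earlier results of these data known, and 227 of 241 names in the other lists were matched. Beside the 10 genes, the text names up to 4 genes of each list with the smallest p in the F-test among those that passed, the 3 genes most like each gene, and marker genes. Predicted genes, clones, small RNAs and receptor families were left out of the most-like genes. The 5 pairs of related genes and the promoter motifs were chosen after the values had been seen.

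Alternatives were repeated quantile normalization, centring on the array median, testing only genes with a stage mean of at least 6, averaging all probe sets per gene, fitting a pair of stages alone, limma's trend and robust options, weighting the arrays by quality, blocking on replicate number and omitting each array. Added after the data were seen were the receptor signal as a covariate, leaving out the 3 arrays with a high receptor signal, averaging replicates 2 and 3, and a block fit of the adolescent and adult arrays alone. Without the 3 arrays with a high receptor signal, adult array 1 is the only adult sample, and adult differences rest on it.

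Deviations from the stage mean of equally numbered adolescent and adult arrays correlated at 0.36, 0.32 and 0.24. Across numbers, adolescent array 2 and adult array 3 correlated at 0.29, and adolescent array 3 and adult array 2 at 0.24. Equally numbered adult and aged arrays correlated at -0.44, -0.39 and -0.24. Those of the other stage pairs did not all exceed 0.1. The labels state no pairing. The main fit has no block.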

Additional observations from a re-analysis of the deposited data

How the results depend on the processing

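Over the alternatives listed at the outset 1139 values kept their direction and their side of the threshold or stayed within 1.5 times, 29 lost the call, 12 gained one and 20 changed sign. Over those added later the counts were 159, 19, 3 and 9. The differences that changed sign lay between -0.03 and 0.28 in the reported fit and did not pass there.

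The number of the 10 genes that passed, leaving out 1 array at a time, ran from 3 to 4 for the step from fetal to adolescent cells, 5 to 9 for adolescent to adult, 2 to 3 for adult to aged, 9 to 10 in adult against fetal, 7 to 8 in aged against adolescent and 8 to 9 in aged against fetal cells, and from 9 to 10 in the F-test. With replicates 2 and 3 averaged, which leaves 2 samples a stage, it was 1 from fetal to adolescent, 3 from adolescent to adult and 0 in aged against adult cells. In that setting it was 8 in adult against fetal, 7 in aged against adolescent and 8 in aged against fetal cells, all higher. With the receptor signal as a covariate it was 5 in adult against adolescent cells, and with array weights it was 5 in aged against adult cells, where 13659 of all genes then passed. Replicate number as a block, which pairs the arrays, gave 4, 8, 2, 10, 7 and 8 genes in the 6 comparisons in the order above, and 10 in the F-test. In a fit of adolescent and adult arrays alone the replicate block gave 8.

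Signs turned as follows. Zfp36l1 in adolescent against fetal cells was 0.0018 after repeated quantile normalization, 0.0075 after centring and 0.027 with array weights (-0.047 to 0.040 without single arrays). Nr4a2 in adult against adolescent cells was -0.19 with the covariate and -0.27 without the 3 arrays of high receptor signal, and Nr4a3 was -0.38 and -0.50 (-0.023 to 0.47 without single arrays). In aged against adult cells Nr4a1 was -0.061 with array weights, and Nr4a2 was -0.011 after repeated quantile normalization and -0.22 with array weights (-0.11 to 0.22 without single arrays). Nr4a3 there was 0.37 with the covariate, 0.41 without the 3 arrays and 0.23 with replicates averaged (-0.35 to 0.14 without single arrays). In aged against adolescent cells Nr4a3 was -0.20 with array weights, -0.0038 with the covariate and -0.081 without the 3 arrays (-0.081 to 0.22 without single arrays). The cause of these changes was not tested.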
